A study of Mus musculus with 4 samples.

Results

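The genes described here are 8 protein-coding genes whose products make or limit crossovers in meiosis and repair mismatched or branched DNA: Msh4, Msh5, Mlh3, Hfm1, Rnf212, Exo1, Mus81 and Blm. They were chosen by name, not by a rule on their signal, though with earlier results of these data known. They are 8 of 22367 protein-coding genes in the GENCODE annotation of mm9 (NCBIM37). For each gene the share of its span under broad regions of histone H3 lysine 36 trimethylation (H3K36me3), the position at which the marked domain starts and the narrow, refined peaks inside it were read from the peak lists of 2 mouse strains. B6 is C57BL/6J. KI is B6.Cg-Prdm9<tm1.1Kpgn>/Kpgn, which has the B6 genome apart from the final exon of Prdm9, where the part that encodes the DNA-binding zinc fingers comes from the CAST/EiJ allele Prdm9 Cst. ChIP-seq was carried out on spermatocytes of animals at 14 dpp (days post-partum), and each strain had an input sample that is labelled 15 dpp. Data of 2 biological replicates were merged by the authors before peaks were called, so each strain has 1 list of broad regions and 1 list of refined peaks. There is therefore no replicate error, no difference between strains was tested, and the read depth behind a region is not given by the lists.

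H3K36me3 is deposited along transcribed genes by SETD2, which travels with elongating RNA polymerase II, so the mark typically begins inside a gene and runs through its body. In spermatocytes PRDM9 places the same mark, together with H3K4me3, on nucleosomes beside its binding sites at recombination hotspots. The 8 genes act after the breaks at these hotspots have formed. MSH4 and MSH5 form a clamp that stabilises crossover intermediates, HFM1 is a germ cell DNA helicase, RNF212 is a RING-finger protein that selects sites for crossing over, and MLH3, a MutL protein, acts with the nuclease EXO1 late in the making of most crossovers. MUS81 is the catalytic subunit of an endonuclease on a separate crossover route, and BLM is a RecQ helicase that takes intermediates apart without a crossover.

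The B6 lists held 54458 distinct broad regions that cover 445.9 Mb and 58502 refined peaks, and the KI lists 66566 regions that cover 425.4 Mb and 72692 peaks. The label was checked against genes that mark cell types. All 9 of 9 meiotic germ cell markers had at least 50% of their span covered in both strains, with lowest values of 85.2% (B6) and 77.4% (KI). Among all protein-coding genes, 39.9% passed that share in both strains. Sertoli cell markers were covered over 19.6% to 71.7% in B6, with 1 of 5 (Wt1, 71.7%) past 50%, and over 0% to 8.49% in KI, with 0 of 5 past 50%. Of 4 Leydig cell markers, Star was covered over 100% in both strains and the other markers over 0% to 1.51%. Markers of peritubular muscle cells, 0 of 2 past 50%, reached at most 15.9%, and those of macrophages, 0 of 2, at most 18.1%. Of the red blood cell markers, Hbb-b1 was at 0% and Alas2 at 95.7% in B6 and 82.8% in KI. Signal over supporting-cell genes thus moved with strain, and its part in the values that follow was not tested. In such samples fewer cells of a type and less mark per cell cannot be told apart.

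Refined peaks are local maxima within the broad regions, and within the 8 genes 2 of 9 B6 peaks and 2 of 19 KI peaks overlapped a peak of the other strain, 1 pair in Msh5 and 1 in Rnf212. Over marked genes of similar length, those at least 50% covered in both strains, the share was 22.5% of B6 peaks and 16.8% of KI peaks, so the low overlap is not a result about these genes. Both sites are shown as the reference sequence of mm9 on the strand of the gene, with the bases that lie in the peaks of both strains in capitals. In Msh5 the window chr17:35181199-35181498 on the minus strand holds 122 coding bases of exon 6, and the peaks of B6 and KI shared 15 bp there. In Rnf212 the window chr5:109159662-109159961 on the minus strand lies in intron 5 of the annotated transcript, and the peaks shared 249 bp.
Msh5: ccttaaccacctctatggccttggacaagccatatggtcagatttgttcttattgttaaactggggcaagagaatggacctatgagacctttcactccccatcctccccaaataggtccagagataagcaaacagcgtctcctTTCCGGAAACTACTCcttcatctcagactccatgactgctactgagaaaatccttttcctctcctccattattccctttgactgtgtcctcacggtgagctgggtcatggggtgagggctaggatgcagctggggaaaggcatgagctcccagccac
Rnf212: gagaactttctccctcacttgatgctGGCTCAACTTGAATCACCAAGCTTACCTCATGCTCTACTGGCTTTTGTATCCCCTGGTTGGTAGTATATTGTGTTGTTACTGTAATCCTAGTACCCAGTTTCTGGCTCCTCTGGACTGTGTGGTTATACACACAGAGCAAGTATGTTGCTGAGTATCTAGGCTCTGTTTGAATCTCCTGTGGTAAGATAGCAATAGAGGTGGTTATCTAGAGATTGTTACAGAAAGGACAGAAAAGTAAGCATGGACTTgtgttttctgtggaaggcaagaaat

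Among refined peaks inside the spans of the 8 genes that did not overlap a peak of the other strain, the widest of each strain lay in the genes of the 2 helicases, and the central 300 bases of each are shown with the dinucleotide CG in capitals. The B6 peak lies in intron 1 of Blm and is 694 bp wide, and its window is chr7:87673041-87673340 on the minus strand. A unit of 48 bases repeats in tandem in this window over 146 bases, so that it is present about 3.04 times. The KI peak lies at exon 4 of Hfm1 and is 861 bp wide, and its window chr5:107346149-107346448 on the minus strand holds 106 coding bases. Each window holds 2 CG dinucleotides.
Blm: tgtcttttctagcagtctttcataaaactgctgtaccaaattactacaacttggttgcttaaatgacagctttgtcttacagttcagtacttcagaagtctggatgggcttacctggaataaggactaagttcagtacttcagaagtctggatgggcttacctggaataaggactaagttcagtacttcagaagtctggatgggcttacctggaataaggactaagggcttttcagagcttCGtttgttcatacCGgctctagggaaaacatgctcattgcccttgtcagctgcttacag
Hfm1: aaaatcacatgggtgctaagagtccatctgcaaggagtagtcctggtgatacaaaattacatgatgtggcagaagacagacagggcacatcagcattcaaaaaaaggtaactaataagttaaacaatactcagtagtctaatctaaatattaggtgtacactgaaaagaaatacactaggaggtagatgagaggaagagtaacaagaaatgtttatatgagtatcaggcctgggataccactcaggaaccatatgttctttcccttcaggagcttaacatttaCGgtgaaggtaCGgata

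Broad H3K36me3 regions covered nearly the whole of most of these genes in both strains. All 8 genes had at least 50% of their span covered in B6 and in KI, where 43.0% of all protein-coding genes passed that share in B6, 41.2% in KI and 39.9% in both. Among the 12926 genes whose length lies between those of the shortest and the longest of the 8, 6058 bp and 86130 bp, 50.8% passed in both strains. Over the summed span of 326.117 kb, 98.1% was covered in B6 and 98.3% in KI, and 6 of 8 genes were covered over at least 95% in each strain, where 46.5% (B6) and 39.5% (KI) of the 6566 genes of the same length range that passed in both strains were. The median cover of the 8 genes was 99.4% in B6 and 98.6% in KI, beside 94.5% and 93.1% for those 6566 genes.

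**Figure D1:**
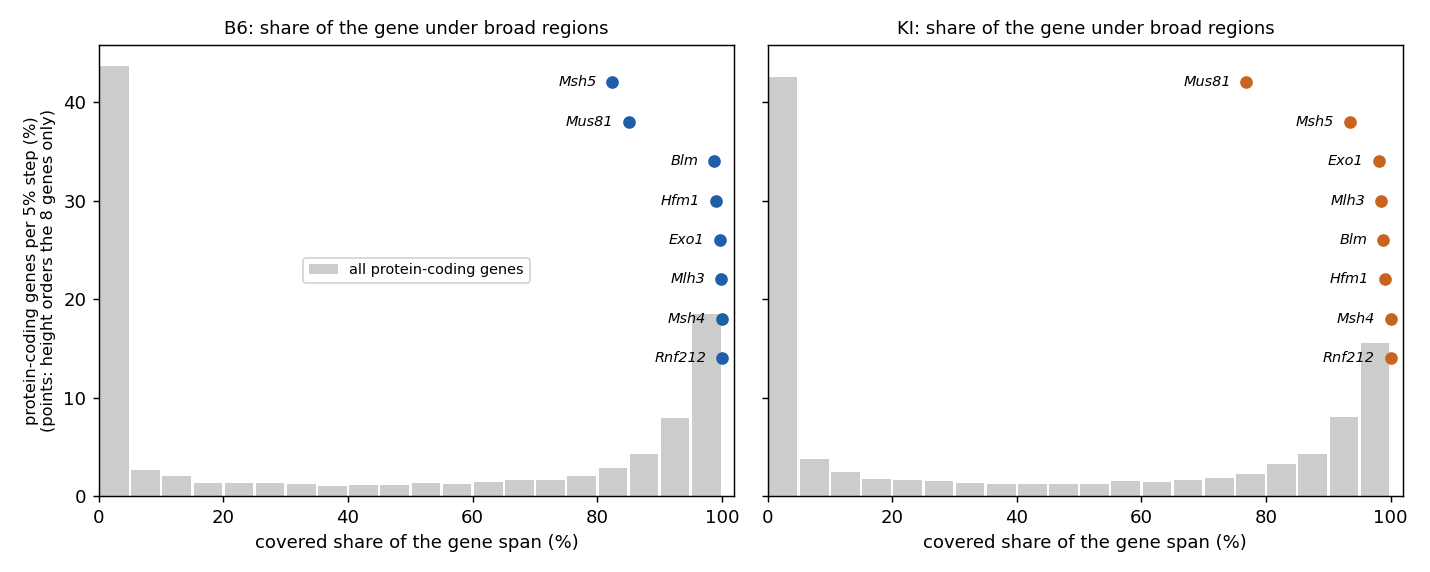
Share of each gene's span under broad H3K36me3 regions in percent (x axis) for the 8 genes (points, ordered by height only) over the distribution of all 22367 protein-coding genes in steps of 5% (grey bars, y axis in percent of genes), with B6 on the left and KI on the right. In B6 the lowest points are Msh5 at 82.4% and Mus81 at 85.1%, in KI Mus81 at 76.9% and Msh5 at 93.4%, and the other 6 genes lie between 98.1% and 100% in both strains.

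The covered bases were nearly the same in B6 and KI. Both lists covered the same 318547 bp (97.7%), B6 alone 1500 bp, KI alone 2000 bp, and 4070 bp were covered in neither. Over the annotated spans, Msh4, Hfm1, Rnf212 and Blm, 4 of the 8, had equal cover in B6 and KI. Over a longer span of Rnf212, given below, cover was 98.8% in B6 and 96.6% in KI. Shared bases and equal cover were not counted over other genes, so these values cannot be read as particular to the 8. All the B6-only bases came from 3 genes, Mlh3, Exo1 and Mus81, each with 500 bp, and all the KI-only bases from Msh5. Edges of broad regions lie on a grid of 500 bp, so a difference of 500 bp is a single step of the caller.

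**Figure D2:**
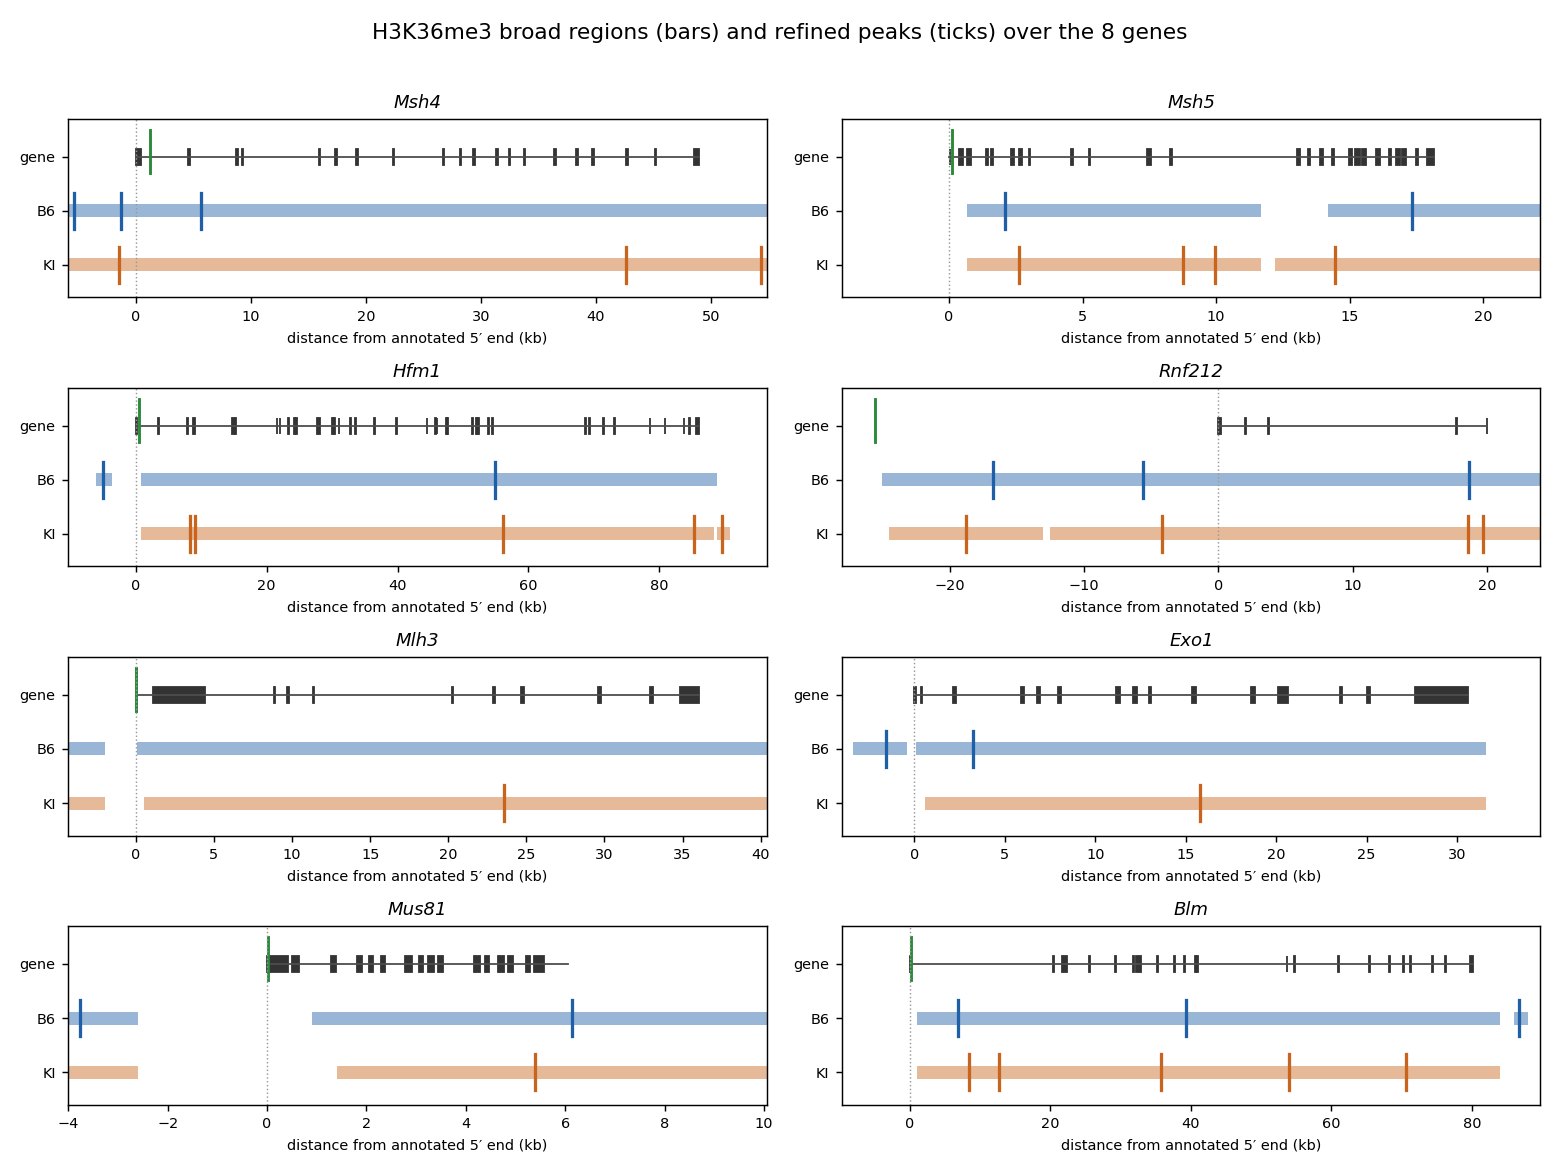
Maps of the 8 genes by distance from the annotated 5′ end in kb (x axis, drawn 5′ to 3′, each gene to its own scale), with exons as black boxes, the RefSeq start as a green line, broad regions of B6 (blue) and KI (orange) as bars and refined peaks as vertical ticks at their midpoints. Bars run through the gene bodies in both strains and start within 1402 bp inside 6 of the genes, Msh5 has a gap of 2500 bp in B6 and 500 bp in KI, and ticks of the 2 strains stand at different places in most genes.

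Among the MutS genes, Msh4 (ENSMUSG00000005493.8, chr3:153520111-153569102, minus strand, 20 exons) was covered over 100% in both strains. Its domain was 63.0 kb long in B6 and 62.0 kb in KI, starting 6898 bp and 6398 bp upstream of the annotated 5′ end and ending 7110 bp and 6610 bp past the 3′ end. The upstream stretch is occupied by Rabggtb, which encodes a subunit of the Rab geranylgeranyl transferase, lies 1150 bp upstream on the same strand and was within the domain over 100% in B6 and 92.4% in KI. Downstream the domain took in part of Asb17, 46.4% in B6 and 41.8% in KI, and the processed transcript 2510003D18Rik, 100% in B6 and 92.0% in KI. The Msh4 domain is therefore a run of marked genes in which an own start for Msh4 cannot be read from the merged regions.

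Msh5 (ENSMUSG00000007035.8, chr17:35165550-35183690, minus strand, 25 exons) was the member with the largest difference in cover, 82.4% in B6 and 93.4% in KI. Its domain started 690 bp inside the gene in both strains. A stretch of 2500 bp inside the gene, chr17:35169501-35172000, was free of regions in B6 and touched 3 exons, whereas in KI 500 bp were free, chr17:35171501-35172000, and touched 0 exons. Exons of Msh5 were covered over 81.1% in B6 and 88.9% in KI and introns over 83.0% and 95.4%. Past the 3′ end the signal ran on for 4049 bp in B6 and 4549 bp in KI, over all of Ng23 and 21.5% and 26.4% of D17H6S56E-3.

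Mlh3 (ENSMUSG00000021245.7, chr12:86575479-86611541, minus strand, 12 exons), the MutL gene of the set, was covered over 99.9% in B6 and 98.5% in KI. The domain started 41 bp inside the gene in B6, the nearest to a 5′ end among the 8, and 541 bp inside in KI. It ended 14978 bp past the 3′ end in both strains, also the farthest among the 8, and held 99.0% of Eif2b2, a translation initiation factor gene 7900 bp downstream.

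The gene of the helicase HFM1 (ENSMUSG00000043410.9, chr5:107269211-107355340, minus strand, 39 exons) was covered over 99.0% in each strain, with the domain starting 840 bp inside in both. That of BLM (ENSMUSG00000030528.6, chr7:87599879-87680005, minus strand, 22 exons) was covered over 98.7% in each strain, from 1005 bp inside the gene to 3878 bp past its end in both. Hfm1 ended 2710 bp past its 3′ end in B6 and 2210 bp in KI. These were the longest domains of the set, 88.0 kb and 87.5 kb over Hfm1 and 83.0 kb over Blm, and other than Olfr719-ps and Gm17257, 2 pseudogenes inside the genes, they held no other annotated gene. In each, the uncovered bases lay at the 5′ end only, so exons were covered less than introns, over 96.3% against 99.3% in Hfm1 and 91.4% against 99.2% in Blm, the same in both strains.

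Rnf212 (ENSMUSG00000055385.6, chr5:109158481-109178467, minus strand, 6 exons) was covered over 100% in both strains, and its domain reached 25033 bp upstream of the annotated 5′ end in B6 and 12533 bp in KI. No other annotated gene lies in that upstream stretch. The RefSeq promoter sequence of Rnf212 matched mm9 at 1 place, with the start at base 109204046, which is 25579 bp upstream of the 5′ end in the annotation used. The B6 domain ended 546 bp inside that start. In KI a gap of 500 bp divided the signal, and the region beyond the gap ended 1046 bp inside the start. Over the longer span of 45.566 kb Rnf212 was covered over 98.8% in B6 and 96.6% in KI and held 3 (B6) and 4 (KI) refined peaks.

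Of the nuclease genes, Exo1 (ENSMUSG00000039748.6, chr1:177810909-177841527, plus strand, 15 exons) was covered over 99.7% in B6 and 98.1% in KI, from 92 bp and 592 bp inside the gene to 973 bp past its end in both strains. In B6 a separate region of 3000 bp, chr1:177807501-177810500, ended 409 bp upstream of the gene and held a refined peak 317 bp wide at chr1:177809199-177809515. KI had no region there, and its next region upstream was 189409 bp away. A similar B6 region of 2500 bp with 1 refined peak lay 3661 bp upstream of Hfm1, where the next KI region was 34161 bp away.

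Mus81 (ENSMUSG00000024906.3, chr19:5482345-5488402, minus strand, 16 exons), the shortest of the 8, was covered over 85.1% in B6 and 76.9% in KI. The domain began 902 bp inside the gene in B6 and 1402 bp in KI, and in so short a gene this stretch accounted for all the uncovered bases. Exons were covered over 76.2% in B6 and 72.9% in KI and introns over 97.9% and 82.5%. The domain ran 6344 bp and 5844 bp past the 3′ end, over 74.3% and 67.9% of Efemp2, an extracellular matrix gene 491 bp downstream.

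The domain started inside the gene in 6 of 8 genes in each strain, 41 to 1005 bp from the 5′ end for B6 and 541 to 1402 bp for KI. The 5′ base itself was covered in 2 of 8, Msh4 and Rnf212, where the share among marked genes of the length range was 7.49% in B6 and 7.11% in KI. The median start was 391 bp inside in B6 and 641 bp in KI, beside 956 bp and 1036 bp for those genes. The medians of the 8 are lowered by the upstream starts of Msh4 and Rnf212. The Msh4 domain runs over Rabggtb, and the RefSeq start of Rnf212 lies 25579 bp upstream of the annotated 5′ end. The domain ended past the 3′ end in 8 of 8 genes, by a median of 5014.5 bp in B6 and 5196.5 bp in KI, where 94.2% and 93.0% of marked genes of the length range ended past it and the medians were 3653 bp and 3233.5 bp.

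RefSeq starts, matched exactly to mm9 for 7 of the 8 genes, gave a narrower set of start distances. The domain began inside the RefSeq start in 6 of 7 genes in each strain, with a median of 546 bp in B6 and 567 bp in KI. Distances from RefSeq starts were not measured over other genes, whose medians above are from annotated 5′ ends. By gene the distances in B6 and KI were 49 bp and 549 bp in Mlh3, 409 bp in both for Hfm1, 567 bp in both for Msh5, 546 bp and 1046 bp in Rnf212, 879 bp and 1379 bp in Mus81 and 884 bp in both for Blm. Only in Msh4 was the start base covered. There the RefSeq start lies at base 153567855, 1247 bp inside the annotated 5′ end. The listed region over the RefSeq start ended 1145 bp upstream of that start in B6, at base 153569000, and 645 bp in KI, at base 153568500. Both edges lie inside the annotated 5′ end, at base 153569102. The next listed region began at base 153568501 in both strains. It overlapped (B6) or touched (KI) the region over the RefSeq start, so that merging joined them into the domain.

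**Figure D3:**
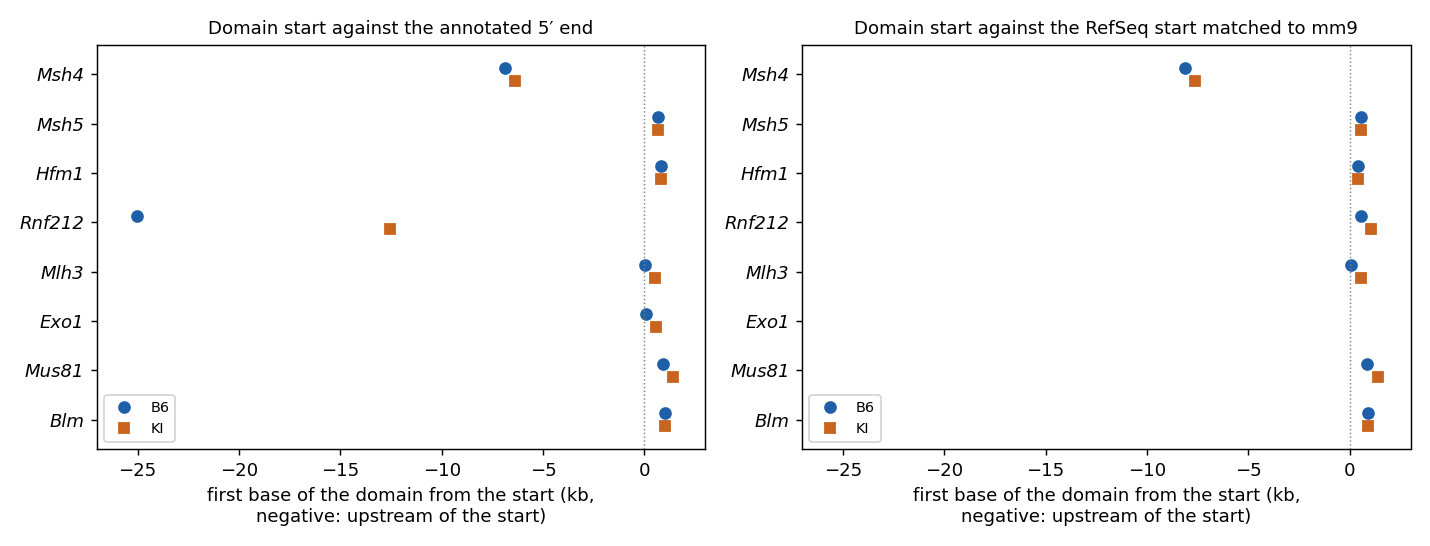
Distance from the start of the gene to the base where the H3K36me3 domain begins, in kb (x axis, negative upstream), for each gene in B6 (blue circles) and KI (orange squares), from the annotated 5′ end on the left and from the RefSeq start on the right (Exo1 not plotted). Rnf212 moves from 25033 bp and 12533 bp upstream to 546 bp and 1046 bp inside, and Msh4 stays upstream in both panels.

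The 250 bases upstream of the RefSeq start are shown for the genes whose start positions differ most between the annotations, Rnf212 and Msh4, and for Hfm1, with CG in capitals. The sequences are those of RefSeq (assembly GRCm38.p6), each with 1 exact match in mm9, at chr5:109204047-109204296 for Rnf212, chr3:153567856-153568105 for Msh4 and chr5:107354910-107355159 for Hfm1, all on the minus strand.
Rnf212: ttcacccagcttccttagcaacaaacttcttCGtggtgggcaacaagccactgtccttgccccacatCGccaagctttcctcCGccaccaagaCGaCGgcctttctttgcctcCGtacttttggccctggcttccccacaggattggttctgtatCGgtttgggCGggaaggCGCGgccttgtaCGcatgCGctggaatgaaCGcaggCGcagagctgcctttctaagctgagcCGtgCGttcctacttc
Msh4: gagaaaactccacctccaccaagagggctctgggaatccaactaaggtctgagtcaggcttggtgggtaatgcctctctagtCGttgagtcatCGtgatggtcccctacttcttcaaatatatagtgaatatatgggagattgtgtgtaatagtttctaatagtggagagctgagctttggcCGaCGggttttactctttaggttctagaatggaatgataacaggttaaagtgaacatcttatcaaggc
Hfm1: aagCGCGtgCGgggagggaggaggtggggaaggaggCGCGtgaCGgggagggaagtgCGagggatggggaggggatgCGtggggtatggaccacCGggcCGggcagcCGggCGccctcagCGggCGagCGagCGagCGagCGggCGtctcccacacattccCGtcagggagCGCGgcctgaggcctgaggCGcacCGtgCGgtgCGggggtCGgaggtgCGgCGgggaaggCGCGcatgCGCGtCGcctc

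Hfm1 had 34 CG dinucleotides in these bases, Rnf212 16 and Msh4 4. The ratio of observed to expected CG was 1.07 in Hfm1, 0.787 in Rnf212 and 0.347 in Msh4, where the median over 32841 RefSeq promoters of the same length was 0.374 with quartiles of 0.168 and 0.723. Of the other genes, Blm had a ratio of 1.07, Mlh3 of 1.04 and 1.02 at its 2 starts, Msh5 of 0.822 and Mus81 of 0.342. The ratios of Msh4 and Mus81 were thus below the median of all promoters and those of the other 5 genes above the upper quartile. Of the former pair, Mus81 had its domain start inside the gene. For Msh4 no own start can be read from the merged regions, and its window lies inside the annotated gene.

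Refined peaks were fewer in B6 than in KI within the 8 genes. Of the refined peaks 9 lay in B6, in 7 genes (all but Mlh3), and 19 in KI, in 8 genes, where 92.2% of marked genes of the length range had at least 1 refined peak in B6 and 93.2% in KI. Per 100 kb this is 2.76 peaks in B6 and 5.83 in KI, beside 6.15 and 8.25 over those marked genes. The genes with more peaks in KI were Blm, 5 against 2, Hfm1, 4 against 1, Msh5, 4 against 2, Rnf212, 2 against 1, and Mlh3, 1 against 0. Msh4, Exo1 and Mus81 had 1 peak in each strain. The distinct broad regions listed over the 8 genes numbered 17 in KI and 12 in B6, although they covered nearly the same bases. Over the whole lists there were 66566 in KI and 54458 in B6. Neighbouring regions of a list could overlap. The broad lists held as many rows as there were refined peaks, so the count of regions is not separate from that of the peaks. The merged KI data held more aligned reads than those of B6 according to the study's methods, and the part of depth in these counts was not tested.

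**Figure D4:**
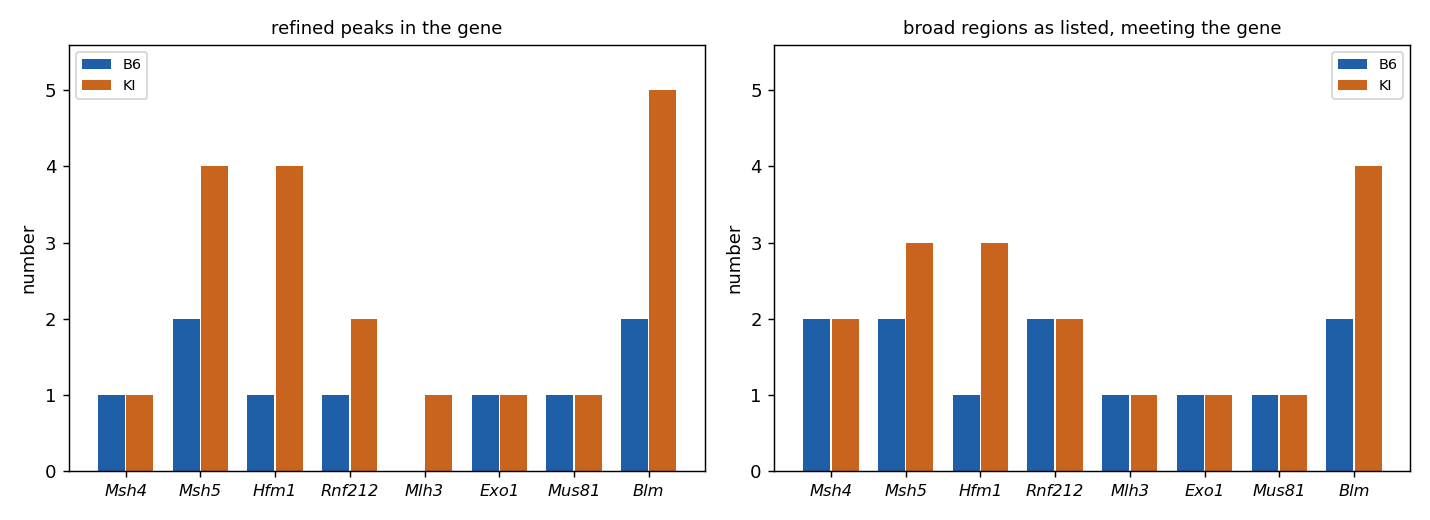
Number of refined peaks in each gene (left) and of broad regions as listed that meet it (right) in B6 (blue) and KI (orange). Blm has 5 refined peaks in KI and 2 in B6 and is met by 4 and 2 broad regions, and Hfm1 has 4 and 1 peaks in 3 and 1 regions.

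Apart from the sites in Msh5 and Rnf212 printed above, the refined peaks of B6 and KI stood at different places in the same marked gene. All 28 peaks lay wholly within broad regions of the other strain, where 87.9% of B6 peaks and 94.7% of KI peaks in marked genes of the length range did, and with 97.7% of the summed span covered in both strains little room was left for another outcome. The unshared peaks were 348 to 12315 bp from the nearest peak of the other strain in B6, the smallest gap being in Mus81 and the largest in Exo1, and 348 to 30160 bp in KI, the largest being in Hfm1. In Exo1, for example, the B6 peak lay 3.229 kb from the 5′ end in intron 3 and the KI peak 15.774 kb from it in intron 10. In Msh4 the B6 peak lay 5.687 kb from the 5′ end in intron 2 and the KI peak 42.66 kb from it, at exon 18.

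None of the peaks, 0 of 9 in B6 and 0 of 19 in KI, had its midpoint within 1 kb of the annotated 5′ end, where the share over marked genes of the length range was 0.365% and 0.341%, and the nearest were in Msh5, 2102 bp from it in B6 and 2605 bp in KI. Coding exons were overlapped by 1 of 9 peaks in B6, at exon 6 of Msh5, and by 5 of 19 in KI. The 5 lay at exons 6 and 16 of Msh5, exon 18 of Msh4, exon 4 of Hfm1 and exon 15 of Mus81. Each peak is named by the first exon that it meets. The KI peaks at exon 6 of Msh5 and exon 15 of Mus81 also reached the next exon. In Blm all peaks of both strains were intronic. The single B6 peak of Mus81 had its midpoint 72 bp past the 3′ end and reached into the gene only beyond its longest coding transcript. Median widths were 309 bp in B6 and 310 bp in KI, close to the 313 bp and 319 bp of all refined peaks, and the median GC content of the peaks was 41.8% and 42.9%.

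Most other genes of the same processes were marked as well. In a wider list of 25 genes, 24 were found in the annotation and 23 of the 24 were covered over at least 50% in both strains. Of all protein-coding genes, 39.9% passed that share in both strains. The 5 further MutS and MutL genes examined all passed, with a median cover of 97.6% in B6 and 95.7% in KI, as did 5 of 5 meiotic crossover factors (medians 90.3% and 95.9%), 5 of 5 helicase and dissolution genes (97.7% in both) and 4 of 4 repair synthesis genes (97.9% and 96.8%). Of 5 nuclease genes 4 passed, and the exception was Slx1b, which encodes the catalytic subunit of a structure-specific nuclease, at 47.8% in B6 and 39.6% in KI. The 3 largest differences between strains were in Pold1, the catalytic subunit of DNA polymerase delta, at 93.8% in B6 with a difference of KI minus B6 of -13.8 percentage points, Cntd1, a cyclin-like crossover factor, at 90.3% and 99.0%, and Slx1b. The 24 genes together held 49 (B6) and 78 (KI) refined peaks. The excess in KI came from the 4 genes over 100 kb long, Pms1, Msh3, Tex11 and Brip1, with 20 peaks in B6 and 51 in KI, while the other 20 genes held 29 and 27, a split chosen after the values were seen.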

How the data were processed

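H3K36me3 ChIP-seq was done on MNase-fragmented chromatin. The deposited lists hold 3 columns (chromosome, start, end) and no counts or scores. Reads were mapped to mm9 by the authors using BWA (1.2.3 in the submitters' processing notes) and kept where their position was unique. They merged both replicates of a strain and called broad and refined peaks with ZINBA against the input. The antibody tag of the labels reads H3K36me6, their titles H3K36me3. The inputs had no file here.

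The broad lists held 58502 rows in B6 and 72692 in KI, and repeated regions were used once. Of the distinct regions, 54456 of 54458 in B6 and 66564 of 66566 in KI had both ends on a 500 bp grid, so starts were read as counted from 1. Touching regions were merged into domains. Genes were those of GENCODE vM1, and a marked gene had at least 50% of its span covered. Covered lengths from numpy 2.4.6 equalled those of bedtools 2.31.1 for 8 of 8 genes in each strain, and 200 of 200 simulated spans were recovered. RefSeq promoters were located in mm9 by exact match, an alternative chosen after seeing the data.

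The genes and lists were chosen with earlier results of these data known. The genes named were the 8, annotated genes in their domains and, of the wider list, genes under 50% and the 3 with the largest difference. A gene of the wider list is not reported here. Alternatives were the merging gap, the minimum width and covered share, the gene span, the reading of starts, the position and overlap rules for peaks and the gene starts.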

Additional observations from a re-analysis of the deposited data

How the results depend on the processing

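Of 62 values recomputed under the alternatives, 58 stayed within 1.5 times the count or within the limits set, and 4 moved, all on which refined peaks count as shared. With an overlap of at least 50% of the shorter peak, 1 of the 9 B6 peaks and 1 of the 19 KI peaks were shared, both in Rnf212, since the 15 bp in Msh5 fall short. Where an overlap with the other strain's broad regions was enough, 9 B6 peaks and 19 KI peaks were shared. With a minimum covered share of 80%, 8 genes passed in B6 and 7 in KI, the exception being Mus81. With RefSeq starts, an alternative chosen after seeing the data, the 8 genes held 11 (B6) and 21 (KI) refined peaks. No paired analysis was possible because each strain has 1 list called on merged replicates, and no replicate could be left out for the same reason. The lists give no depth, so a stretch without a region may be unmarked or below detection.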

Other observations

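The unmarked stretch around the 5′ ends of Mlh3, Mus81 and Msh5 was closed upstream by a region that began at the same base in both strains. Such shared edges were not counted over other genes, and edges lie on a grid of 500 bp. Upstream of Mlh3 the next region began at chr12:86613501 in both strains, which left 2000 bp free of regions in B6 and 2500 bp in KI. Upstream of Mus81 it began at chr19:5491001, leaving 3500 bp and 4000 bp, and upstream of Msh5 at chr17:35189001, leaving 6000 bp in each strain. Upstream of Blm, by contrast, 53500 bp were free in B6 and 54000 bp in KI. For Hfm1 and Exo1 the next upstream regions of the strains lay at different places, as given above. The differences between strains in the first 2 stretches come from the edge inside the gene, which lay 1 grid step of 500 bp farther in for KI.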
